A study of Homo sapiens with 5 samples.

Results

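The 4 HOX gene clusters were examined for DNA methylation in K562, a line of human chronic myeloid leukaemia cells. The assay was MeDIP-seq, the sequencing of DNA fragments that an antibody to 5-methylcytosine has pulled down. Members were chosen by position alone: every peak overlapping by at least 1 bp the HOXA interval (150 kb of chromosome 7, 27110000 to 27260000), the HOXB interval (230 kb of chromosome 17, 46590000 to 46820000), the HOXC interval (140 kb of chromosome 12, 54320000 to 54460000) or the HOXD interval (125 kb of chromosome 2, 176940000 to 177065000), all in hg19. The 5 deposited lists held 67 such peaks among 23350. Peaks of different lists that shared at least 1 bp were merged into regions, which gave 24 HOX regions among 11260 in the genome. The 2 wild-type libraries came from a bulk culture (WT bulk) and from transfected cells (WT transfected), and the 3 libraries with mutated DNMT3A from the lines MT1, MT2 and MT4. The study's title names CRISPR/Cas9 editing as the source of the mutations. The labels give neither the alleles nor whether the lines came from separate editing events, so p-values reflect the scatter of these libraries and nothing wider. The bulk and the transfected culture are unlike as controls.

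HOX genes encode homeodomain transcription factors that set position along the body axis, and their order on the chromosome follows the order in which they act along that axis. In blood, genes of the HOXA and HOXB clusters are active in stem and progenitor cells and are shut off as cells mature; HOXA9 is a leading leukaemia gene of this family. DNMT3A, a DNA methyltransferase, adds methyl groups to CG sites that carry none, and acute myeloid leukaemias with mutated DNMT3A often have high HOX expression.

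By RefSeq gene order (GRCh38.p14), all 39 HOX genes were found, 11 in HOXA, 10 in HOXB, 9 in HOXC and 9 in HOXD. Along rising coordinates HOXA ends with HOXA13 and HOXB runs from HOXB1 to HOXB13, whereas HOXC starts with HOXC13 and HOXD runs from HOXD13 to HOXD1. An hg19 annotation was not used here, so no peak was set to a single gene, exon, intron or promoter; peaks are placed by hg19 coordinates, by distance from the low-coordinate end of the interval, and by which end of the cluster they lie nearer to.

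The antibody can only enrich DNA that holds methylated CG sites, so the CG content of HOX promoters was counted in RefSeq sequence. In the 250 bases before the start of the gene, the 20 HOX genes with an entry had a median of 20.5 CG sites, against 11 over 27305 genes. Of the 20, 9 were HOXA and 8 HOXD genes; HOXB had 1 entry, with 7 CG sites, and HOXC 2, HOXC4 and HOXC5, with the same sequence and 14 CG sites, so the median says little of those clusters. The range was 4 to 40, and the genes at its ends are printed to show how unlike HOX promoters are in this respect, HOXA13 on the minus strand with the most CG sites and HOXD4 on the plus strand with the fewest. Capitals mark CG. The peak lists carry no sequence, and whether a peak covers either stretch was not tested.
HOXA13: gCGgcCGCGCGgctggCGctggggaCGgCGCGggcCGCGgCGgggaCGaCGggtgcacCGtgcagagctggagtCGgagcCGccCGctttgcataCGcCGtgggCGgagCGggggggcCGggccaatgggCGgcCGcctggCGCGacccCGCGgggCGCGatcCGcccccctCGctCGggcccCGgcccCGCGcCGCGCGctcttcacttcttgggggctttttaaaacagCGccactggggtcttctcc
HOXD4: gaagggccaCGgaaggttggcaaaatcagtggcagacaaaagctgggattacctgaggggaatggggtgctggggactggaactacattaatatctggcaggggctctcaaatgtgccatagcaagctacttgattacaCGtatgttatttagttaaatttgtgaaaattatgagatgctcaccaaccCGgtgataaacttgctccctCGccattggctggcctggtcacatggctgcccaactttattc

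All 4 clusters held peaks, and the flanking DNA held few. The intervals held 17 peaks in WT bulk, 11 in WT transfected, and 15, 6 and 18 in MT1, MT2 and MT4. Stretches as long as each interval on both of its sides held 4, 0, 1, 1 and 4 peaks in the same order of libraries, 10 in all against 67 inside. Density inside was 26.4 peaks per Mb in WT bulk, 17.1 in WT transfected, and 23.3, 9.30 and 27.9 in MT1, MT2 and MT4. Over the rest of the genome, from the first to the last peak of each chromosome, it was 2.07, 1.49, 0.946, 0.475 and 2.81. The density in the clusters was thus between 9.95 times (MT4) and 24.6 times (MT1) that elsewhere. Whether the CG content of the clusters has a part in this was not tested.

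HOXD was the most densely marked cluster in every library except MT1, where HOXC was. It held 48.0 peaks per Mb in WT bulk, 48.0 in WT transfected, and 32.0, 32.0 and 40.0 in MT1, MT2 and MT4. The HOXB interval, the longest, had 13, 4.35, 17.4, 0 and 21.7 peaks per Mb in the same order. HOXA had 20, 6.67, 13.3, 6.67 and 26.7, and HOXC 35.7, 21.4, 35.7, 7.14 and 28.6. HOXC came next, then HOXA, then HOXB in every library except MT1.

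**Figure D1:**
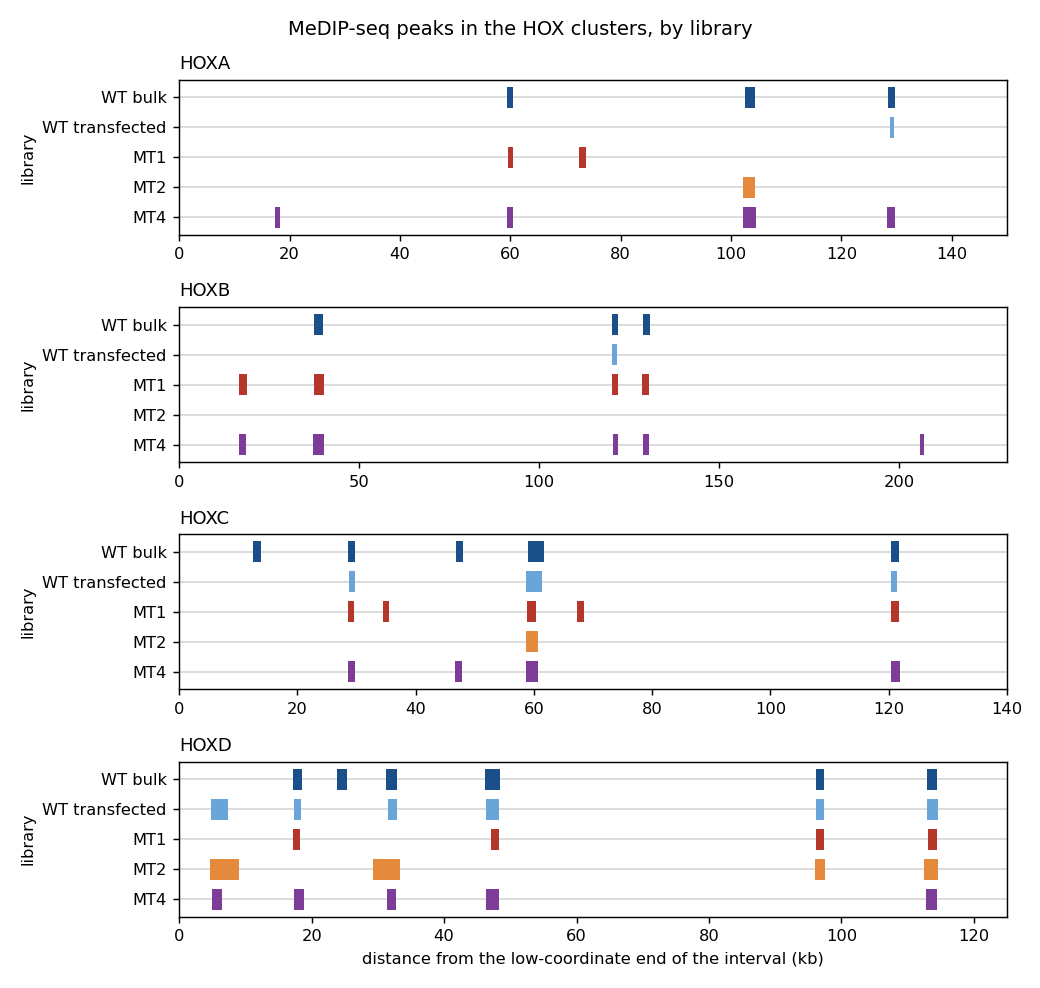
Peaks of each library drawn to scale along the 4 HOX intervals, with distance from the low-coordinate end in kb on the horizontal axis and 1 row per library. HOXD carries peaks in all 5 rows at 114 kb, while the HOXB row of MT2 is empty.

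The question the study's design poses for these genes is whether methylated regions are fewer or smaller in the mutated lines. The number of HOX peaks did not separate the genotypes. It averaged 14.0 ± 4.24 (SD, n = 2) in wild-type and 13 ± 6.24 (SD, n = 3) in mutated libraries, a difference of -1 (exact permutation test, two-sided, p = 1.0). There are 10 ways to choose 2 of 5 libraries. The exact permutation p was taken as 2 times the smaller one-sided share of these, so it cannot fall below 0.2. MT4 and WT bulk had the most HOX peaks and MT2 the fewest, and the difference turned to 2.50 without MT2 and to 2 without WT bulk.

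Base pairs covered by peaks gave the same picture. Peaks covered 4.29% of the 4 intervals in WT bulk, 2.58% in WT transfected, and 3.36%, 2.51% and 4.49% in MT1, MT2 and MT4. The group means were 3.44 ± 1.21% (SD, n = 2) and 3.45 ± 0.989% (SD, n = 3), which differ by less than the spread within either group (exact permutation p = 1.0). The sign of the difference of 0.0176 percentage points turned without WT transfected (-0.839) and without MT4 (-0.498).

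The lists differ in length, from 1426 peaks in MT2 to 8399 in MT4, so HOX peaks were also taken as a share of the list. They made up 0.528% of MT1 peaks (95% Wilson interval 0.320 to 0.869%) and 0.421% of MT2 peaks (0.193 to 0.915%). The shares were 0.274% in WT bulk (0.171 to 0.438%), 0.246% in WT transfected (0.137 to 0.440%) and 0.214% in MT4 (0.136 to 0.339%). Of the mutated lines, MT1 and MT2 thus lay above both wild-type libraries and MT4 below, and the difference of means, 0.128 percentage points, had an exact permutation p of 0.6. The higher shares belong to the 2 shortest lists. With each list limited to its 1426 best-scoring peaks, HOX peaks made up 0.140% in WT bulk, 0.281% in WT transfected and in MT1, 0.421% in MT2 and 0.0701% in MT4, so that MT1 no longer lay above WT transfected. These intervals cover counting error only.

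**Figure D2:**
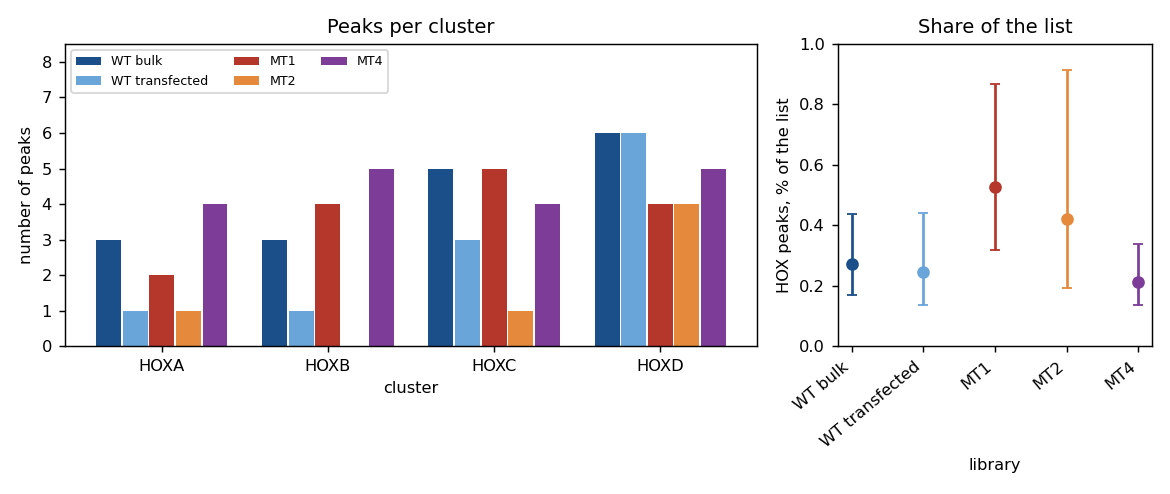
Left, number of peaks in each HOX cluster for each library (bars); right, HOX peaks as a percentage of the list with 95% Wilson intervals (points and error bars). HOXD is the cluster where both wild-type bars, at 6, stand above the mutated bars, at 4, 4 and 5; at right MT1 is highest at 0.528%.

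By cluster, only in HOXD did peak numbers of the genotypes not overlap. HOXD had 6 peaks in each wild-type library, 4 in MT1, 4 in MT2 and 5 in MT4, a difference of -1.67 (exact permutation p = 0.2, the smallest possible; adjusted over the 4 clusters by Benjamini-Hochberg, 0.8). Of 7044 bins of 125 kb with a peak in any list, wild-type numbers lay above all mutated numbers in 3.79%, and of the 270 bins with 10 or more peaks in all lists together in 3.70%. These shares count that direction alone. Clusters were read for a separation in either direction, and the share of bins that separate in either direction is unknown. The covered length did not follow: peaks covered 7.74% of HOXD in WT bulk and 8.07% in WT transfected, against 4% in MT1, 9.72% in MT2 and 6.47% in MT4 (exact permutation p = 0.8). MT2 had 4 HOXD peaks but the largest covered part of the 5 libraries, and 2 of them were 4326 and 4107 bp wide. With every list limited to its 1426 best-scoring peaks, HOXD held 1 peak in WT bulk, 4 in WT transfected, and 2, 4 and 1 in MT1, MT2 and MT4, and the numbers overlapped. With peaks scoring at least 121.64, the median over all lists, HOXD held 5 in each wild-type library, 2 in MT1, 2 in MT2 and 3 in MT4. These numbers did not overlap (difference -2.67, exact permutation p = 0.2, the smallest possible). That limit left 3354 peaks in WT bulk, 2204 in WT transfected, and 1278, 500 and 4340 in MT1, MT2 and MT4. The shares of bins above are for the full lists, so how often other bins separate at this limit is unknown. The exact permutation p was 1.0 for HOXA, 0.8 for HOXB and 1.0 for HOXC, each 1.0 after adjustment.

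HOX peaks were wider than the list median in 4 of 5 libraries and of middling score. Their median width was 1523 bp in WT bulk (1255 bp over the whole list), 1323 bp in WT transfected (1183 bp), 2102 bp in MT2 (1783 bp) and 1492 bp in MT4 (1085 bp). In MT1 it was 1335 bp, level with the 1335.5 bp of its list. In MT4, 16 of 18 HOX peaks were wider than the median of the list, and in MT1 7 of 15. The genotype means of the HOX median width were 1423 ± 141 bp (SD, n = 2) in wild-type and 1643 ± 405 bp (SD, n = 3) in mutated libraries, a difference of 220 bp (exact permutation p = 0.8) that became -9.75 bp without MT2. The score is the authors', given by the peak caller, and was ranked only within a list; the median HOX peak stood at percentile 58.9 in WT bulk, 50.4 in WT transfected, and 42.9, 60.7 and 62.0 in MT1, MT2 and MT4.

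HOX regions were shared among libraries more often than regions of the genome at large. Of the 24, 15 (62.5%) had a peak in at least 3 libraries, where 31.3% of all regions did, and 9 (37.5%) had one in at least 4, where 18.0% of all regions did. Regions of a single library made up 7 of 24 (29.2%), against 49.9%. The share found in all 5 libraries, 2 of 24 (8.33%), was close to the 7.42% of all regions. No HOX region had a peak in both wild-type libraries and no mutated one, a class that holds 2.74% of all regions, and none had a peak in the 3 mutated libraries alone, a class of 0.0710%. At these rates a count of 0 among 24 regions is no result about HOX, and no test was run on it.

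Each library held a different part of the 24 regions. WT bulk held 70.8% of them and 55.1% of all regions, and MT4 75.0% and 74.4%. WT transfected held 45.8% of the HOX regions and 39.6% of all. MT1 held 62.5% against 25.2%, and MT2 25.0% against 12.7%. MT1 thus had the widest gap between HOX and the genome.

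**Figure D3:**
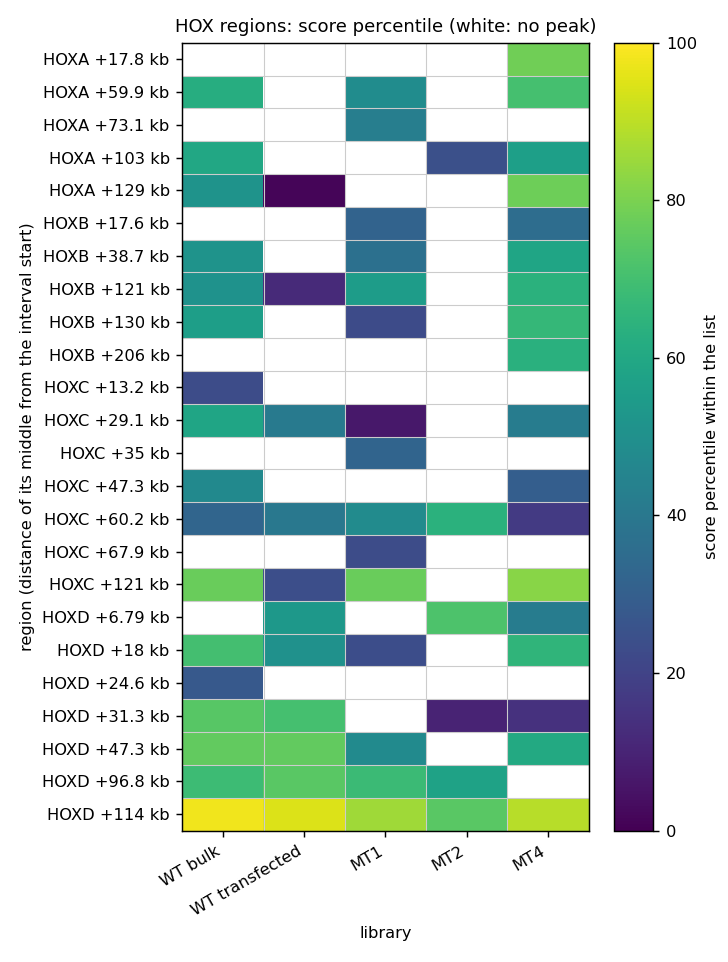
The 24 HOX regions (rows, named by cluster and distance of their middle from the low-coordinate end of the interval) in the 5 libraries (columns); colour gives the percentile of the peak's score within its own list and white means no peak. The HOXD row at 114 kb is filled in all columns, with percentiles from 74.5 to 97.9.

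HOXD, whose genes pattern the limbs, the genital tract and the posterior trunk, held 7 regions, 5 of them in at least 4 libraries. The region nearest its HOXD1 end, on chromosome 2 from 177052520 to 177054635, was the highest-ranking HOX region. It scored 306 in WT bulk, 235 in WT transfected, and 172, 132 and 214 in MT1, MT2 and MT4, at percentiles 97.9, 94.9, 85.7, 74.5 and 89.2 of the lists. It was the top HOX peak of every list. Its peak was 1523, 1623, 1445, 2116 and 1621 bp wide in the same order.

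The neighbouring HOXD region, from 177035986 to 177037589, had a peak in every library but MT4, which has the longest list. Its scores were 151 in WT bulk, 157 in WT transfected, 135 in MT1 and 115 in MT2, at percentiles 68.6, 74.6, 68.2 and 57.5. It was the only HOX region held by the other 4 libraries and missing from MT4. All other HOX regions in at least 4 libraries included MT4.

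Toward the HOXD13 end lay 5 regions. The region from 176986125 to 176988468 was held by WT bulk (score 166, percentile 75.9), WT transfected (159, 75.9), MT1 (116, 48.0) and MT4 (136, 60.6). The region from 176969227 to 176973333 was held by WT bulk (163, 74.2) and WT transfected (149, 70.4), and with low ranks by MT2 (93.2, 10.0) and MT4 (96.5, 14.4). In MT2 its peak was 4107 bp wide, where the other libraries had 1631, 1407 and 1384 bp. The region from 176957160 to 176958853 was held by all but MT2, with scores of 154 in WT bulk, 121 in WT transfected, 101 in MT1 and 144 in MT4, at percentiles 70.0, 50.4, 23.5 and 65.3. Ranks of lists of different lengths do not show a change of methylation, so these ranks only describe the lists.

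The outermost HOXD region, from 176944625 to 176948950, was held by WT transfected (score 125), MT2 (129) and MT4 (116) and by neither WT bulk nor MT1. It was the widest HOX region, and its peak measured 4326 bp in MT2 against 2551 bp in WT transfected and 1465 bp in MT4. The last HOXD region, from 176963864 to 176965406, was found in WT bulk alone, at a score of 106.

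HOXC, a cluster active in posterior trunk and hindlimb, held 7 regions. The one from 54378676 to 54381627 on chromosome 12 was the second HOX region with a peak in all 5 libraries, and it ranked below the median of every list except that of MT2. It scored 110 in WT bulk, 113 in WT transfected, and 116, 121 and 98.1 in MT1, MT2 and MT4, at percentiles 32.7, 40.1, 48.3, 64.0 and 17.1. Its peak was wide in both wild-type libraries, 2713 and 2612 bp, and measured 1612 bp in MT1, 1976 bp in MT2 and 1902 bp in MT4. It was the only HOXC peak of MT2.

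A pair of HOXC regions had a peak in every library but MT2. At the end away from HOXC13, the region from 54440350 to 54441882 scored 169 in WT bulk, 102 in WT transfected, 150 in MT1 and 184 in MT4, at percentiles 77.2, 23.9, 77.2 and 82.1. WT transfected stood apart here with the low rank. Nearer HOXC13, the region from 54348506 to 54349728 scored 136, 113, 93.0 and 116 in the same order. The remaining HOXC regions were thinly held: 54366648 to 54367947 by WT bulk (123) and MT4 (107), 54332555 to 54333801 by WT bulk alone (102), and both 54354425 to 54355524 (105) and 54387299 to 54388450 (100) by MT1 alone. Of the 7 HOXC regions 6 lay in the part of the interval nearer HOXC13.

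HOXB, with HOXA one of the clusters used by blood progenitors, held 5 regions, and none had a peak in MT2. MT4 held all 5 and MT1 held 4. On chromosome 17 the region from 46710285 to 46712036 was the most widely held, with scores of 127 in WT bulk, 95.3 in WT transfected, 122 in MT1 and 141 in MT4. Its neighbour from 46718678 to 46720789 scored 133 in WT bulk, 100 in MT1 and 146 in MT4. These regions lie near the middle of the interval, 6.64 kb apart.

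Toward the HOXB1 end, beyond 80.1 kb without a peak in any library, the region from 46627297 to 46630202 was held by WT bulk (127), MT1 (108) and MT4 (133), and its peak was wide in each, at 2505, 2668 and 2862 bp. The region from 46606484 to 46608804, nearest that end, was held by MT1 (105) and MT4 (111) and by no wild-type library. It ranked below the median of both lists, at percentiles 31.7 in MT1 and 35.9 in MT4. MT2 had no HOXB peak, so without MT2 this is the single HOX region held by the remaining mutated lines and no wild-type library. The share of all regions in that class is not given here, so this region is no result about HOX. At the HOXB13 end, the region from 46795870 to 46797060 was found in MT4 alone (140). Recovery in MT2, the percentage of HOXB regions held by at least 2 of the other 4 libraries that MT2 also held, was 0 of 4, with a Wilson interval up to 49.0%. Over all regions 23% were recovered by MT2, which lies within that interval.

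HOXA, the cluster of HOXA9, HOXA10 and the other HOX genes most often raised in acute leukaemia, held 5 regions on chromosome 7, none of them in more than 3 libraries. Nearest the HOXA13 end, the region from 27238208 to 27239733 scored 127 in WT bulk, 90.4 in WT transfected and 172 in MT4. The region from 27212159 to 27214504 scored 138 in WT bulk, 98.3 in MT2 and 131 in MT4, and that from 27169406 to 27170487 scored 141 in WT bulk, 116 in MT1 and 154 in MT4. MT4 and WT bulk held all of these, and MT1, MT2 and WT transfected held a different one each. The other HOXA regions were found in a single library, 27127369 to 27128218 in MT4 (173) and 27182396 to 27183770 in MT1 (112).

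The WT transfected library had few peaks on chromosome 7 below 60 Mb, the segment that holds HOXA, and HOXA was read against the rest of that segment. WT transfected had 1 HOXA peak. It scored 90.4, near the lowest score kept, 90, at percentile 1.36 of its list, and was 709 bp wide, the narrowest of all 67 HOX peaks. WT transfected recovered 1 of the 3 HOXA regions held by at least 2 other libraries, 33.3% (95% Wilson interval 6.15 to 79.2%). It recovered 25 of 101 regions on the rest of the segment, 24.8% (17.4 to 34.0%). On chromosome 7 beyond 60 Mb it recovered 62.8% (57.5 to 67.9%), and on other chromosomes outside the HOX clusters 64.4% (63.0 to 65.8%). With 3 regions, the HOXA interval holds both the low value of the segment and the higher value elsewhere, so HOXA cannot be told apart from either. MT1 and MT2 also recovered 1 of these 3 regions each, and WT bulk and MT4 recovered all 3 (43.9 to 100%).

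Peaks of WT transfected on the rest of the segment numbered 30, with a median score of 107, against 276 beyond 60 Mb, with a median of 132. In WT bulk the numbers were 130 and 426, with medians of 132 and 125. Of the 130 regions of WT bulk on the rest of the segment, WT transfected held 23 (17.7%; 12.1 to 25.2%), and of the 3 in HOXA it held 1. In HOXB, on another chromosome, WT transfected recovered 1 of 4 regions (25.0%; 4.56 to 69.9%), an interval that also holds the 63.5% recovered outside the HOX clusters. It recovered 3 of 4 in HOXC (75.0%; 30.1 to 95.4%) and 6 of 6 in HOXD (61.0 to 100%). A site without a listed peak may be less methylated or less well sampled, and peak lists do not tell these apart.

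**Figure D4:**
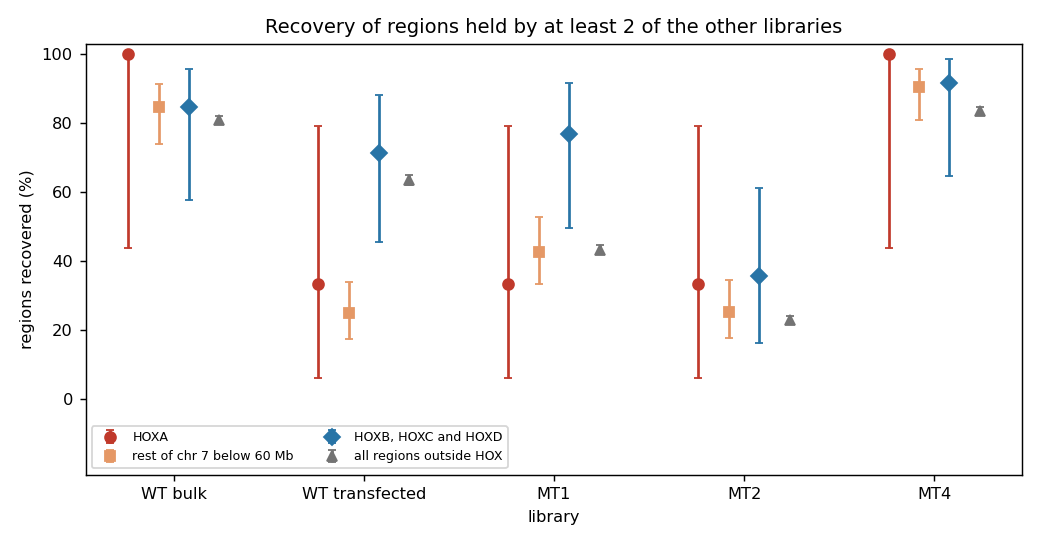
Percentage of regions held by at least 2 of the other libraries that each library also held, for HOXA (circles), the rest of chromosome 7 below 60 Mb (squares), the other HOX clusters (diamonds) and all regions outside HOX (triangles), with 95% Wilson intervals. In WT transfected the square lies at 24.8% and the triangle at 63.5%, and the interval of HOXA spans both.

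Recovery over all HOX regions was at or above that of the genome in each library, with wide intervals. It was 68.8% in MT1 (11 of 16; 44.4 to 85.8%), where 43.3% of regions outside HOX were recovered (43.4% of all), a value just below that interval. The other pairs of values were 87.5% (64.0 to 96.5%) and 80.9% in WT bulk, 64.7% (41.3 to 82.7%) and 63.5% in WT transfected, 35.3% (17.3 to 58.7%) and 23% in MT2, and 93.3% (70.2 to 98.8%) and 83.6% in MT4. In these 4 libraries the genome value lay within the HOX interval. Over all regions the recovery was 81.0% in WT bulk, 63.5% in WT transfected, 23% in MT2 and 83.7% in MT4. HOX regions of 1 library lie close together and are not independent, and each library is judged by the same regions as the others, so no test was made.

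Within shared HOX regions, the libraries also differed in peak width. MT2, whose whole list had the largest median width (1783 bp), had the widest peak in 4 of its 6 regions. MT4 had the widest in 7 of 16, WT bulk in 5 of 15, MT1 in 1 of 12 and WT transfected in 0 of 11. Seen along the intervals, 16 of the 24 regions lay in the part nearer the HOX13 genes. By cluster these were 6 of 7 in HOXC, 5 of 7 in HOXD, 3 of 5 in HOXB and only 2 of 5 in HOXA. WT bulk held 12 of these 16 and MT4 12, WT transfected and MT1 8 each, and MT2 4. MT1 held 7 of the other 8 regions, the most of any library, and WT bulk 5, WT transfected 3, MT2 2 and MT4 6.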

How the data were processed

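Paired-end MeDIP-seq was run on 5 K562 cultures with reads of 100 to 125 bp and about 40 M reads a sample, per the labels' protocols. The submitters' processing notes name hg19, Bowtie 1.1.1 and edgeR, without their roles. Each deposited list holds the start, end and score of every peak of a single library, as the authors called them; peak names begin with MACS, per the files. The score deposited by the authors is 90 at its lowest over the 5 lists together. For the caller's threshold, its version and any input control the sources used here give nothing. Read totals of each library and the depth behind a single peak are unknown. A missing peak is a site that the authors' list does not hold, and the reason is not given.

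HOX peaks, merged regions, base pairs covered and recovery were computed with Python 3.11.15, pandas 2.3.3, numpy 2.4.6 and scipy 1.17.1. Starts were counted from 1. Genotypes were compared by an exact two-sided permutation test over libraries. Merging was tested on simulated lists, where 200 of 200 planted regions were recovered. There all peaks of a region overlapped and the regions lay far apart, so the merging of close regions was not tested. Alternatives were a score of at least 121.64 (the median over the 5 lists); lists of the 1426 best peaks; peaks wholly inside an interval; overlap of 50% or gaps of 500 bp in merging; other numbers of libraries for recovery; and leaving out each library. Regions named were up to 10 per cluster by number of libraries and rank, which took in all 24. The members, lists and tests were chosen with earlier results of these data known.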

Additional observations from a re-analysis of the deposited data

How the results depend on the processing

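No paired analysis was possible because the labels number only the mutated lines. No setting could give an exact p below 0.2. The genotype difference in the number of HOX peaks, -1, turned to 0.667 at equal list length and ranged from -4 to 2.50 without one library (without WT transfected and without MT2). That in base pairs covered, 0.0176 percentage points, turned to -0.778 at the score limit of 121.64 and ranged from -0.839 to 0.875 without one library. That in median width, 220 bp, was 522 bp at the score limit and ranged from -9.75 (without MT2) to 374 bp when each library was left out. The difference in share of the list stayed above 0 in all settings, from 0.00769 at the score limit to 0.214 without MT4. HOX regions in all libraries numbered 1 of 17 at the score limit and 1 of 9 with lists of equal length. When each library was left out they numbered 2 to 7, of 21 to 24 regions (7 of 24 without MT2). Those held by the wild-type pair alone numbered 1 of 17 at the score limit and 0 to 2 when each library was left out. The 2 of 24 without WT transfected are regions of WT bulk alone. Those held by the mutated lines alone numbered 0 to 1 when each library was left out (1 of 24 without MT2). The merging alternatives changed none of these 3 numbers. Shares over all regions of the genome are not given for these settings, so the changed counts are no result about HOX. By cluster, the HOXA difference in peak number, 0.333, was -0.167 at the score limit and -0.667 to 1.33 without one library. The HOXC difference, -0.667, was 0.167 with lists of equal length and, leaving out each library, -1.67 to 0.5. The HOXD difference kept its sign, from -2.67 at the score limit to -0.167 at equal list length. HOXA recovery in WT transfected, 33.3%, was 0% at the score limit (0 of 3). It was 0 to 33.3% when each library was left out (0 of 2 without WT bulk and without MT4). For regions in at least 3 of the other libraries it was 0% (0 of 2). On the rest of chromosome 7 below 60 Mb, recovery was 10.5% (6 of 57) at the score limit. There it was 30.4% (17 of 56) without WT bulk, 27.5% (14 of 51) without MT4 and 29.8% (14 of 47) for at least 3 other libraries. For regions in at least 1 other library, recovery was 1 of 5 in HOXA and 27 of 223 (12.1%) on the rest. So few HOXA regions set HOXA apart from that segment in no setting. At equal list length no HOXA region qualified. The unknown depth at each site limits every absence, and regions missing from the short MT1 and MT2 lists cannot be called unmethylated.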
